A study of Mus musculus with 6 samples.

Results

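The 10 genes described here, Pdgfra, Cspg4, Gpr17, Ptprz1, Vcan, Bcan, Neu4, C1ql1, Lhfpl3 and Tnr, are markers of oligodendrocyte precursors, chosen by gene symbol. All 10 were found, once each, among the 27884 genes of the deposited table, and all 10 passed the filter on low counts. The libraries came from the preoptic area of NuTRAP::Pnoc-Cre females aged 17 to 18 weeks. NuTRAP is an allele that places EGFP on a ribosomal protein in cells where Cre has acted, and here Cre was driven from Pnoc, the gene of prepronociceptin. The 3 IP libraries hold RNA bound to EGFP-tagged ribosomes that were pulled down with an antibody against GFP, and the 3 input libraries hold total RNA of the tissue. Each replicate pooled punches of 3 animals, IP and input of one number came from one pool, and all animals carried both alleles, so that no library came from untagged mice.

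Total counts lay between 48204567 and 51380354 in IP libraries and between 49068467 and 53056642 in input libraries. Pnoc, whose locus drives Cre, was 4.16-fold higher in IP (log2 fold change 2.06 ± 0.22, SE; 44.0 ± 3.39 CPM in IP and 10.6 ± 2.88 CPM in input, SD, n = 3 each). Transcripts of the mitochondrial genome took 0.106% to 0.214% of the counts in IP and 3.50% to 4.90% in input.

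Oligodendrocyte precursors, also called NG2 glia after the product of Cspg4, are the dividing glial cells of the adult brain from which myelinating oligodendrocytes arise. They are spread through grey and white matter, depend on platelet-derived growth factor for division and survival, receive synapses from neurons and carry a coat of chondroitin sulfate proteoglycans. Some of their markers are also made by other cells: Pdgfra by meningeal fibroblasts, Cspg4 by pericytes, Ptprz1 and Bcan by astrocytes, and Tnr by some neurons.

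The precursor markers were lower on the tagged ribosomes than in the tissue, to very unequal degrees. Of the 10 genes 9 were lower and 0 higher in IP at an adjusted p under 0.05 by edgeR (quasi-likelihood F test, p-values adjusted after Benjamini and Hochberg over 18640 genes), and no marker was higher at an unadjusted p under 0.05 or in DESeq2. Over all genes tested 17.1% were called lower and 12.9% higher. The median log2 fold change of the 10 genes was -2.58, against -0.07 over all genes tested. Pdgfra, Neu4, Gpr17, Vcan, Ptprz1, Cspg4 and Bcan, 7 genes in all, were lower by at least 4-fold, which held for 6.77% of all genes tested. Bcan reached that line narrowly, at 4.03-fold, and fell just short of it in DESeq2 (log2 fold change -1.98). C1ql1 and Tnr were lower by less than 2-fold, and Lhfpl3 did not pass. In 9 of the 10 genes every IP library lay below every input library, as it did for 26.0% of all genes tested, and in 0 of the 10 did every IP library lie above, as it did for 21.7%. IP and input of one number came from the same pool, so the cells present in the tissue were the same. In bulk RNA such as this, fewer tagged cells of a type and less RNA on tagged ribosomes per cell cannot be told apart. Without libraries from untagged mice, RNA carried over from untagged cells cannot be told apart from them either.

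**Figure D1:**
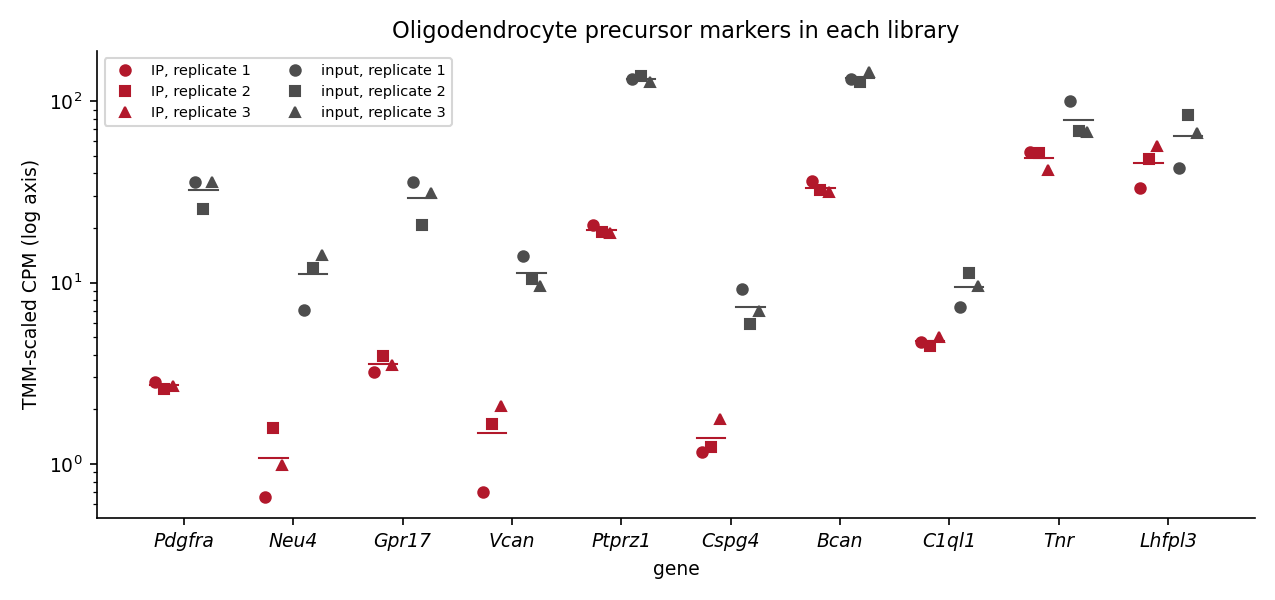
Counts per 1000000 counts of the TMM-scaled library total (CPM, log axis) of each marker in the 3 IP libraries (red, left of each pair) and the 3 input libraries (grey), with marker shapes for the replicate number and a line at each group mean. The groups stand far apart for Pdgfra (2.71 against 32.5 CPM) and overlap only for Lhfpl3 (45.8 against 64.7 CPM).

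The stretch before the start of a gene is shown for 3 markers, to set beside each other Neu4 and Vcan, which were lower by 10.3-fold and 7.59-fold, and Tnr, which was lower by 1.62-fold. They were taken from the markers whose window holds no annotated exon; that of Gpr17 is not shown. Of the rest, Neu4 and Vcan had the lowest log2 fold changes and Tnr the highest. Each is the 250 bases before the canonical transcript start of GENCODE M39, read from GRCm39 and written 5′ to 3′ on the gene's strand. Capitals mark the E-box CANNTG, the motif of basic helix-loop-helix factors such as those encoded by Olig1 and Olig2, and ACAAAG or ACAATG, which are bound by Sox factors, on either strand. The windows lie at chr1:93947923-93948172 (plus) for Neu4, chr13:89890815-89891064 (minus) for Vcan and chr1:159351089-159351338 (plus) for Tnr.
Neu4: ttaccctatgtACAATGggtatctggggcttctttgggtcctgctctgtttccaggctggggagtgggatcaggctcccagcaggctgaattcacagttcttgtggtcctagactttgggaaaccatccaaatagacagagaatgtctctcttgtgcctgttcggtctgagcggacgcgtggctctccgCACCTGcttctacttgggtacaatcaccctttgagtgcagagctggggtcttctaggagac
Vcan: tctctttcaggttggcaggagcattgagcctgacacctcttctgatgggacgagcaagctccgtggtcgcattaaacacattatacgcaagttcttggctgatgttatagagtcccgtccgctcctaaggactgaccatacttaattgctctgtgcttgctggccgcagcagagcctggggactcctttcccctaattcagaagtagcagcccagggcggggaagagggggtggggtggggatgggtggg
Tnr: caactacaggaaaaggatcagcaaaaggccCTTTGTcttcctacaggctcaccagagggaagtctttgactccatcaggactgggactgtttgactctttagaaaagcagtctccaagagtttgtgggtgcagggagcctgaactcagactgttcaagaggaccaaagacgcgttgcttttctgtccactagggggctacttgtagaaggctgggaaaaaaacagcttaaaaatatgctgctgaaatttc

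In these windows Neu4 holds 1 CANNTG and 1 ACAATG, Tnr holds 1 ACAAAG on the other strand, and Vcan holds none of the 3 motifs. Over the same windows of all 10 markers, CANNTG was found in 5, ACAAAG in 2 and ACAATG in 3. Of 18542 windows of genes tested, 61.7% held CANNTG, 14.1% held ACAAAG and 7.55% held ACAATG. A match of letters is a description of the sequence and was not read as a binding site.

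The receptors and the receptor phosphatase of the list were all lower in IP. Pdgfra (ENSMUSG00000029231, mm39 chromosome 5, 75312953 to 75358876, plus strand) encodes the receptor tyrosine kinase through which platelet-derived growth factor A acts on precursors. It had 2.84, 2.60 and 2.70 CPM (counts per 1000000 counts of the TMM-scaled library total) in IP replicates 1 to 3, against 35.9, 25.6 and 35.9 CPM in input. The 3 IP libraries were nearly level, at 120 to 134 counts each, while input replicate 2 was the lowest input. Pdgfra was thus 12.0-fold lower in IP, with a log2 fold change of -3.58 ± 0.20 (SE; adjusted p = 3.07e-05, edgeR), and 1.89% of all genes tested had a lower one.

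Gpr17 (ENSMUSG00000052229, chromosome 18, 32076050 to 32082689, minus strand) encodes a G protein-coupled receptor of precursors that have begun to differentiate, where it holds back maturation. It had 3.22, 3.95 and 3.51 CPM in IP and 35.9, 20.8 and 31.2 CPM in input. Input replicate 2 was again the lowest input library, and the groups did not overlap. The log2 fold change was -3.04 ± 0.24 (SE; adjusted p = 0.000128, edgeR). Its exons share 320 bases, or 5.93% of their length, with Lims2 on the opposite strand. Whether counting used strand is not given in the sources used here, and Lims2 itself was lower in IP at -1.89 ± 0.35 (SE). How many counts of Gpr17 came from Lims2 was not measured, and the share of length sets no bound on it.

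Ptprz1 (ENSMUSG00000068748, chromosome 6, 22875501 to 23052915, plus strand) encodes a transmembrane tyrosine phosphatase that carries chondroitin sulfate chains and binds pleiotrophin. It had 20.7, 19.0 and 18.8 CPM in IP and 133, 138 and 127 CPM in input. Both groups were tight, with an SD of 1.02 CPM around 19.5 CPM in IP and of 5.43 CPM around 133 CPM in input (n = 3 each). Ptprz1 was 6.80-fold lower in IP, at a log2 fold change of -2.77 ± 0.13 (SE; adjusted p = 1.76e-05, edgeR).

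The proteoglycans and the matrix glycoprotein were lower to unequal degrees. Cspg4 (ENSMUSG00000032911, chromosome 9, 56772317 to 56807154, plus strand), the gene of the NG2 proteoglycan, had 1.17, 1.24 and 1.77 CPM in IP and 9.20, 5.95 and 7.0 CPM in input, a log2 fold change of -2.40 ± 0.31 (SE; adjusted p = 0.00119, edgeR). Vcan (ENSMUSG00000021614, chromosome 13, 89803431 to 89890628, minus strand), whose window printed above holds none of the motifs searched, is the gene of the hyaluronan-binding proteoglycan versican. It had 0.704, 1.67 and 2.10 CPM in IP and 14.0, 10.5 and 9.53 CPM in input. The order of the pools was opposite in the 2 kinds of library: pool 1 was the lowest in IP and the highest in input. Its log2 fold change was -2.92 ± 0.40 (SE; adjusted p = 0.00158, edgeR), on 33, 77 and 104 counts in IP.

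Bcan (ENSMUSG00000004892, chromosome 3, 87894838 to 87907537, minus strand) encodes brevican, a lectican found in the matrix around synapses and in perineuronal nets. It had 36.2, 32.3 and 31.6 CPM in IP and 133, 127 and 145 CPM in input. The fold was close to 4 in every pool, since IP held 27.3%, 25.5% and 21.9% of the input level in pools 1 to 3. The log2 fold change was -2.01 ± 0.13 (SE; adjusted p = 5.05e-05, edgeR).

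Tnr (ENSMUSG00000015829, chromosome 1, 159351339 to 159759299, plus strand) encodes tenascin-R, a glycoprotein that links lecticans in perineuronal nets. It had 52.5, 51.7 and 41.8 CPM in IP and 100, 68.5 and 67.3 CPM in input, a 1.62-fold difference. The groups did not overlap, but the gap was small beside that of the receptors, and input replicate 1 alone reached 100 CPM. The log2 fold change was -0.69 ± 0.19 (SE; adjusted p = 0.0253, edgeR). The call was lost without any one IP library (adjusted p between 0.0511 and 0.101, edgeR), and without input replicate 1 the log2 fold change was -0.47 (adjusted p = 0.0409, edgeR). With the replicate as a block and a correction for transcript length and GC it was -0.19 (adjusted p = 0.226, edgeR), in a fit that moved the median of all genes tested to 0.30.

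Neu4, the enzyme of the list, had the log2 fold change nearest to that of Pdgfra. Neu4 (ENSMUSG00000034000, chromosome 1, 93948173 to 93956056, plus strand) encodes a sialidase, which removes sialic acid from glycans. It had 0.661, 1.58 and 0.987 CPM in IP and 7.07, 12.1 and 14.2 CPM in input. Pool 1 was lowest in both kinds of library, and the highest IP value was well below the lowest input value. Neu4 was 10.3-fold lower in IP, at -3.36 ± 0.41 on the log2 scale (SE; adjusted p = 0.000914, edgeR), on 31 to 73 counts per IP library.

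C1ql1 and Lhfpl3 stood nearest to the input level together with Tnr. C1ql1 (ENSMUSG00000045532, chromosome 11, 102830090 to 102837514, minus strand) encodes a secreted protein of the C1q family that binds the adhesion receptor encoded by Adgrb3 and is also known from neurons. It had 4.69, 4.49 and 5.04 CPM in IP and 7.34, 11.3 and 9.63 CPM in input. The IP libraries were level and the input libraries spread, without overlap. The log2 fold change was -0.99 ± 0.23 (SE; adjusted p = 0.0137, edgeR). It no longer passed when IP replicate 2 (-0.95, adjusted p = 0.0528, edgeR) or input replicate 3 (-0.94, adjusted p = 0.0631, edgeR) was left out.

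Lhfpl3 (ENSMUSG00000106379, chromosome 5, 22951057 to 23480595, plus strand) encodes a tetraspan membrane protein of a family that includes auxiliary subunits of receptors and channels. It had 33.4, 47.8 and 56.3 CPM in IP and 43.0, 83.9 and 67.1 CPM in input. The groups overlapped, yet in each pool IP was below its own input, at 77.8%, 57.0% and 83.9% of it. Pool 1 was lowest in both kinds of library, while the highest was pool 3 in IP and pool 2 in input. Without the block the log2 fold change was -0.50 ± 0.27 (SE; adjusted p = 0.202, edgeR), and with the replicate as a block it was -0.48 (adjusted p = 0.0374, edgeR), where all 10 markers were called lower, as were 19.4% of all genes tested. Without input replicate 1 it was also called, at -0.71 (adjusted p = 0.0437, edgeR). Without input replicate 2 it was -0.23 (adjusted p = 0.576, edgeR) and without IP replicate 1 -0.31 (adjusted p = 0.458, edgeR). With the block and the length and GC correction the direction turned, at 0.09 (adjusted p = 0.641, edgeR). Exons of Lhfpl3 share 567 bases, or 17.6% of their length, with the antisense gene A930003O13Rik, which had 1.99 ± 0.823 CPM in IP and 2.52 ± 1.04 CPM in input (SD, n = 3 each).

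**Figure D2:**
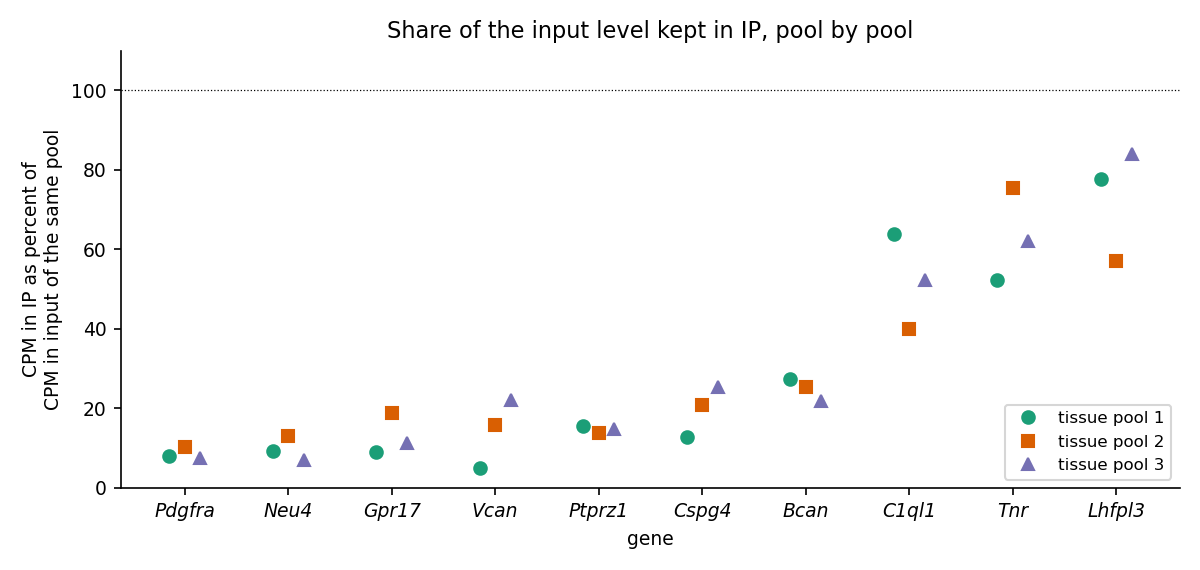
CPM in IP as a percent of the CPM in input of the same tissue pool, for each marker, with a dotted line at equal levels. Pdgfra, Neu4 and Gpr17 kept between 6.97% and 18.9%, and C1ql1, Tnr and Lhfpl3 between 39.9% and 83.9%, with every point below the dotted line.

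The decreases were set against that of Pdgfra within each library, where scaling cancels. The log2 ratio of Lhfpl3 to Pdgfra averaged 4.04 ± 0.43 in IP and 0.96 ± 0.73 in input (SD, n = 3 each), a difference of 3.08. The same difference was 2.88 for Tnr, 2.59 for C1ql1, 1.55 for Bcan, 1.16 for Cspg4, 0.79 for Ptprz1 and 0.55 for Gpr17. For these 7 genes the ratios of IP and input libraries did not overlap. In a two-sided exact permutation test of 3 against 3 that gives p = 0.1 (0.129 after Benjamini-Hochberg adjustment over the 9 ratios). It is the smallest value that this test can give, and the test did not use the pairing of the libraries by pool. The ratios of Vcan and Neu4 overlapped, with differences of 0.52 (exact permutation p = 0.4) and 0.18 (exact permutation p = 0.8). Since 1.89% of all genes tested had a lower log2 fold change than Pdgfra, most genes would have a higher ratio to it in IP. The ratios thus restate the log2 fold changes, and the share of all genes without overlap was not computed.

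The mix of marker reads therefore differed between IP and input. Lhfpl3 and Tnr made up 55.0%, 59.8% and 59.6% of all reads of the 10 genes in IP replicates 1 to 3, against 27.6%, 30.3% and 26.2% in input. Pdgfra, Cspg4, Gpr17, Vcan and Neu4 made up 5.50%, 6.64% and 6.72% in IP, against 19.7%, 14.9% and 19.0% in input. Bcan and Ptprz1 made up 36.5%, 30.8% and 30.6% in IP, against 51.3%, 52.6% and 52.9% in input. These shares follow from the log2 fold changes given above, in which Lhfpl3 and Tnr were the least decreased markers, and are not a separate result. The summed level of the 10 genes was 156 to 166 CPM in IP and 503 to 518 CPM in input.

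Per kilobase of gene length the order of the markers also differed. In IP, Lhfpl3 was first with 14.3 ± 3.60 CPM per kb, followed by Bcan at 8.21 ± 0.615, Tnr at 3.78 ± 0.464 and C1ql1 at 3.22 ± 0.189 CPM per kb (SD, n = 3). In input, Bcan led with 33.1 ± 2.26 CPM per kb, ahead of Lhfpl3 at 20.1 ± 6.41, Ptprz1 at 9.32 ± 0.381 and C1ql1 at 6.39 ± 1.34 CPM per kb. In IP, Tnr and C1ql1 were within the sum of their SDs, and so were Pdgfra (0.271) and Neu4 (0.232) and, at the low end, Cspg4 (0.117) and Vcan (0.103 CPM per kb). In input, C1ql1, Tnr (6.11) and Gpr17 (5.64 CPM per kb) were within their SDs, as were Pdgfra (3.24) and Neu4 (2.39) and the lowest pair, Vcan (0.783) and Cspg4 (0.619 CPM per kb).

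**Figure D3:**
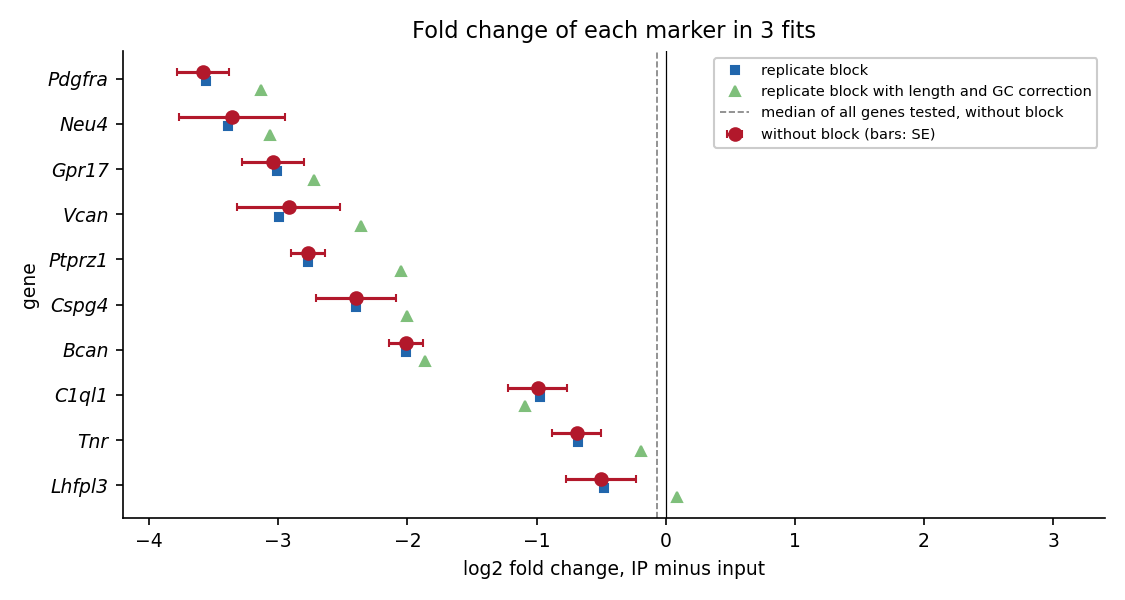
Log2 fold change, IP minus input, of each marker in the edgeR fit without a block (red, bars are the SE), with the replicate as a block (blue) and with the block and a length and GC correction (green). From Pdgfra to Bcan the 3 fits stay at or below -1.86, while the correction takes Tnr to -0.19 and Lhfpl3 to 0.09.

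The other genes of the oligodendrocyte lineage were mostly lower in IP too. In none of the lineage lists with 0 genes called higher was a gene higher at an unadjusted p under 0.05 or in DESeq2. Of 12 transcription factors of the lineage 10 were lower and 0 higher, with a median log2 fold change of -2.39 (edgeR with the same test and adjustment over all genes, also for the lists that follow). Myrf, which switches on myelin genes, was at -3.57 ± 0.23 and Sox10, which acts through the whole lineage, at -3.40 ± 0.34 (SE). Olig1 and Olig2, which specify precursors, were at -2.80 ± 0.21 and -2.66 ± 0.28 (SE). Olig2 had 6.89, 7.63 and 12.1 CPM in IP and 40.8, 68.5 and 59.3 CPM in input. Tcf7l2, named after its values were seen and also known from thalamic neurons, did not pass, at 0.39 ± 0.74 (SE). Tcf7l2 moved with the pool, at 47.4, 320 and 253 CPM in IP and 38.6, 245 and 189 CPM in input.

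Of 15 further genes known from precursors 11 were lower and 1 was higher, with a median of -1.25. Tmem100 at -3.27 ± 0.27, Scrg1 at -2.75 ± 0.24, Fabp7, a fatty acid binding protein gene, at -2.44 ± 0.29 and Rlbp1, a retinaldehyde binding protein gene, at -2.20 ± 0.34 (SE) had the lowest log2 fold changes among those called. Megf11, a transmembrane gene with EGF-like repeats that is also known from retinal neurons, was higher in IP, at 97.4, 101 and 116 CPM against 41.1, 69.4 and 66.0 CPM in input (0.83 ± 0.20, SE). Leaving out IP replicate 3 cost Megf11 its call (0.76, adjusted p = 0.068, edgeR). The count of lower genes was 7 when either IP replicate 2 or IP replicate 3 was left out, and 4 without both libraries of replicate 3.

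Among genes of dividing cells, Mki67 and Top2a were scarce. Of 5 cell-cycle genes 3 had enough counts to be tested, and 0 passed in edgeR. At an unadjusted p under 0.05, 2 were lower, as were 1 in DESeq2 and 2 with the replicate block. Over all genes tested, DESeq2 called 17.3% lower and the replicate block 19.4%, and the unadjusted share is not given. With 3 genes tested, these counts are not read as a result about the list. Mki67, which marks dividing cells, had 0.256, 0 and 0.161 CPM in IP and 2.69, 0.147 and 0.928 CPM in input (adjusted p = 0.0991, edgeR). Top2a, the topoisomerase gene of dividing cells, had 0.426, 0 and 0.0403 CPM in IP and 6.39, 0.110 and 0.754 CPM in input (adjusted p = 0.0985, edgeR). Mki67 and Top2a were highest in pool 1 in either kind of library. Pcna, a replication gene that non-dividing cells also express, had 27.3 to 35.8 CPM in IP and 28.9 to 31.8 CPM in input.

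Of the genes of later stages, those of mature oligodendrocytes were all lower and those of committed precursors in part. Of 12 genes of committed precursors and newly formed oligodendrocytes 6 were lower and 0 higher, with a median of -1.15, among them Enpp6, a choline phosphodiesterase gene, at -3.88 ± 0.44, Bcas1 at -2.85 ± 0.15, Tns3 at -2.31 ± 0.25 and Itpr2, an intracellular calcium channel gene, at -2.0 ± 0.30 (SE). The other 6 did not pass, at log2 fold changes from -0.93 to 0.33, among them Fyn at 0.09 and Tmem163 at 0.33, chosen after their values were seen. All 12 genes of mature oligodendrocytes were lower, with a median of -3.23 and a range from -3.86 to -2.37. Among them were Ermn, at -3.86 ± 0.25, Mal, at -3.44 ± 0.14, and Aspa, the gene of aspartoacylase, at -3.26 ± 0.31 (SE). The log2 fold changes of Pdgfra, Neu4, Gpr17, Vcan, Ptprz1 and Cspg4 lie within that range, and those of Bcan, C1ql1, Tnr and Lhfpl3 lie above it. A difference between the lists was not tested.

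**Figure D4:**
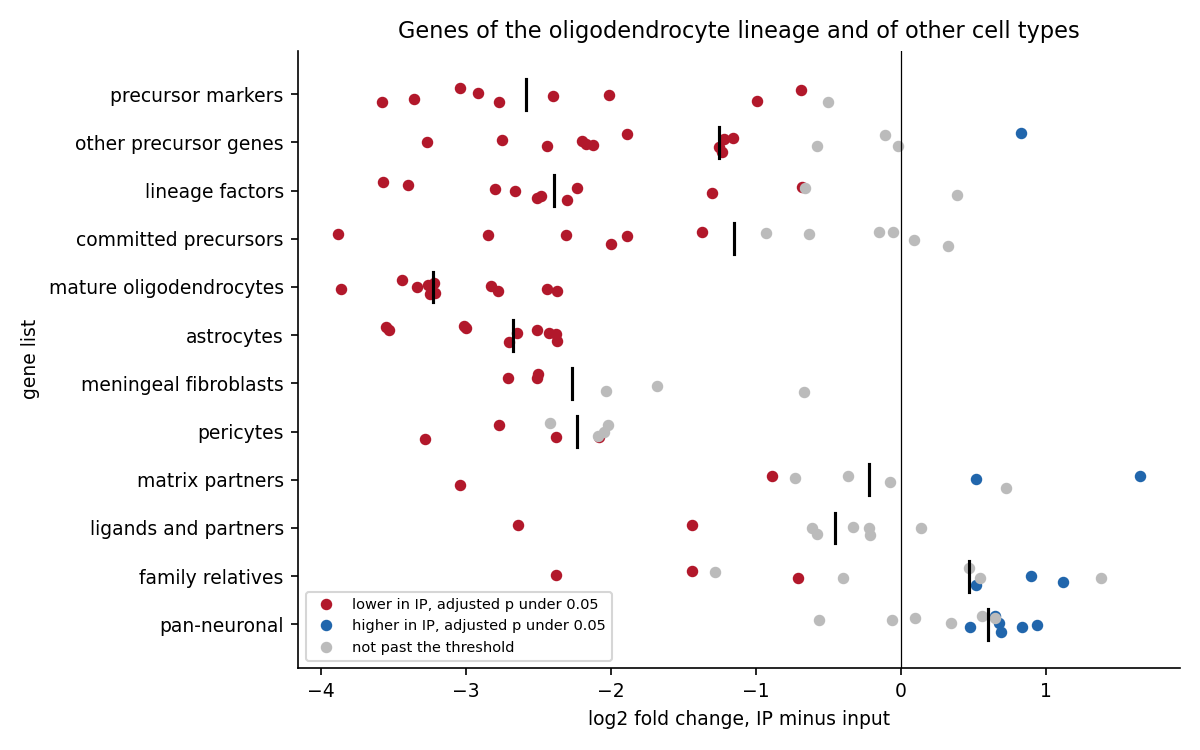
Log2 fold change, IP minus input, of every tested gene of the precursor markers and of 11 other lists, with a black bar at each list's median and colour for the call (red lower, blue higher, grey not past the threshold). The medians run from -3.23 for mature oligodendrocytes over -2.58 for the precursor markers to 0.60 for pan-neuronal genes.

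Of the markers of cell types that share genes with precursors, those of astrocytes were all called lower in IP. Those of fibroblasts and pericytes were called in part, though all had log2 fold changes below 0. All 10 astrocyte markers were lower, with a median of -2.67 and a summed level of 332 to 440 CPM in IP and 2040 to 2900 CPM in input. The lowest were Slc1a3 at -3.55 ± 0.21, Aqp4 at -3.53 ± 0.16, Sox9 at -3.01 ± 0.33 and Gja1 at -3.0 ± 0.19 (SE). Of 6 meningeal fibroblast markers, which share Pdgfra, 3 were lower (Col1a1, Col1a2 and Dcn, at -2.71 ± 0.50, -2.51 ± 0.48 and -2.50 ± 0.60, SE), with a summed level of 1.84 to 5.59 CPM in IP and 12.1 to 20.8 CPM in input. Without both libraries of replicate 3 the count was 0, and Dcn no longer passed without input replicate 3 (adjusted p = 0.0694, edgeR). Of 8 pericyte markers, which share Cspg4, 4 were lower (Notch3 at -3.28 ± 0.44, Vtn at -2.77 ± 0.27, Pdgfrb at -2.38 ± 0.54 and Rgs5 at -2.08 ± 0.19, SE), with a summed level of 10.8 to 11.3 CPM in IP and 48.2 to 67.3 CPM in input. The log2 fold changes of all 8 pericyte markers ran from -3.28 to -2.02, with a median of -2.24. Those of the 6 fibroblast markers ran from -2.71 to -0.67, with a median of -2.27. Kcnj8, Abcc9 and Anpep were at 0 in at least 1 IP library. The part of these cells in the values of Pdgfra, Cspg4, Ptprz1 and Bcan was not tested.

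Some pan-neuronal genes were higher in IP. Of 12 such genes 6 were higher and 0 lower, with a median of 0.60, among them Tubb3 at 0.94 ± 0.17 and Syp at 0.84 ± 0.11 (SE), which encode a neuronal tubulin and a synaptic vesicle protein, and Nefl at 0.69 ± 0.18 and Uchl1 at 0.68 ± 0.22 (SE). Map2, chosen after its values were seen, was at -0.56 ± 0.23 (SE; adjusted p = 0.101, edgeR), and was called lower with the replicate block (-0.54, adjusted p = 0.0123, edgeR) and without input replicate 2 (-0.70, adjusted p = 0.0347, edgeR). Only 3 genes were higher without IP replicate 2, IP replicate 3 or input replicate 3, and 0 without both libraries of replicate 3. Tubb3 and Syp kept their calls without any 1 library, Nefl lost its call without IP replicate 2 or 3 or input replicate 3 (adjusted p between 0.0599 and 0.0819, edgeR), and Uchl1 lost its call without any 1 library other than input replicate 2 (adjusted p between 0.0565 and 0.158, edgeR). The summed level of the 12 genes was 13500 to 15700 CPM in IP and 9410 to 11100 CPM in input. The part of neurons in the values of Tnr, Lhfpl3 and C1ql1 was not tested.

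Some ligands, matrix partners and family relatives of the markers were called, in either direction. Over all genes tested 17.1% were called lower and 12.9% higher. In lists of 8 to 11 tested genes the counts that follow are not read as a result about these lists. Of 8 ligands and binding partners 2 were lower and 0 higher, with a median of -0.45: Mdk, the growth factor midkine, which binds the Ptprz1 product, at -2.64 ± 0.29, and Pdgfd at -1.44 ± 0.46 (SE). Pdgfd lost its call without the low-count filter (adjusted p = 0.064, edgeR), with the replicate block (adjusted p = 0.069, edgeR) and without any 1 library other than input replicate 1 (adjusted p between 0.0717 and 0.166, edgeR). Of 8 matrix genes tested out of 9, 2 were lower and 2 higher. Hapln2, a link protein gene of nodes of Ranvier, was at -3.04 ± 0.31 and Ncan, the gene of the lectican neurocan, at -0.89 ± 0.23 (SE). Hapln4, a link protein gene of perineuronal nets around inhibitory synapses, was at 0.52 ± 0.15 and Has1, a hyaluronan synthase gene, at 1.65 ± 0.52 (SE). Hapln4 lost its call with library totals as the scaling and without any 1 library other than input replicate 2 (adjusted p between 0.0599 and 0.132, edgeR). Has1 lost its call with the replicate block (adjusted p = 0.0682, edgeR) and without any 1 library (adjusted p between 0.0623 and 0.175, edgeR), and Ncan lost its call without any one IP library (adjusted p between 0.0512 and 0.0806, edgeR).

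Among 11 tested relatives of the markers, which encode proteins of the same families, 3 were higher and 3 lower, with a median of 0.47. A pair of relatives of Lhfpl3 were higher: Lhfpl4, an auxiliary subunit of inhibitory GABA-A receptors, had 219, 224 and 218 CPM in IP and 141, 88.5 and 126 CPM in input (0.90 ± 0.17, SE), and Lhfpl5, known from the transduction channel of hair cells, had 31.1, 28.4 and 21.5 CPM in IP and 8.31, 15.1 and 13.8 CPM in input (1.12 ± 0.25, SE). Pdgfrb, the sister receptor of Pdgfra, was lower at -2.38 ± 0.54 and C1ql3, a relative of C1ql1, at -1.44 ± 0.27 (SE). The remaining calls, outside the rule for named genes, were Neu1, the lysosomal sialidase gene, higher at 0.52 ± 0.13, and Lhfpl2, lower at -0.71 ± 0.20 (SE). Neu1 no longer passed without IP replicate 1 or 2 (adjusted p = 0.0666 and 0.0561, edgeR). Lhfpl2 no longer passed without any 1 library other than input replicate 1 (adjusted p between 0.0714 and 0.108, edgeR) or under the corrected and blocked fit for length and GC (-0.29, adjusted p = 0.325, edgeR). Without both libraries of replicate 3, 0 relatives were called in either direction.

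The genes whose 6-library profile was most like that of Pdgfra were Lama2, Zcchc24, Plxnb3, Slc1a3 and Pcdhga7, by the Euclidean distance between log2 CPM values centred on each gene's mean (0.389 to 0.523, with Pearson's r from 0.993 to 0.997 over 6 libraries that share 3 pools). Their log2 fold changes lay between -3.55 and -3.37. By the same distance Gpr17 had rank 38 among all genes tested, Ptprz1 rank 137, Neu4 rank 271, Vcan rank 332 and Cspg4 rank 372. Bcan had rank 680, C1ql1 rank 2842, Tnr rank 3829 and Lhfpl3 rank 5735. The distance includes the difference between IP and input, so closeness to Pdgfra in large part restates a similar log2 fold change.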

How the data were processed

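Poly(A)-selected libraries were read as paired ends of 75 bp. Per the submitters' processing notes, the authors used HISAT2, featureCounts and DESeq2 with mm39; the sources used here do not give their versions. The deposited counts per gene are whole numbers without normalization, and only these counts entered the tests. The deposited table also holds a signal, which the authors made from the counts with 1 size factor per library, and FPKM values that the authors made with a gene length. Its log2 fold changes and p-values are of the authors' own comparison, per the file headers. There, in the authors' deposited table, all markers but Lhfpl3 (adjusted p = 0.196) are under 0.05.

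Here edgeR 4.0.16 in R 4.3.3 was used (glmQLFit and glmQLFTest, TMM scaling, filterByExpr by group, no covariate, two-sided, adjusted p under 0.05), tested first on simulated data. The SE is the size of the log2 fold change over the square root of F. Alternatives were DESeq2 1.42.0, other scalings, no filter, a replicate block, the block with a loess offset on length and exon GC (known for 98.9% of genes), and leaving out each library. Leaving out both libraries of a pool was added after seeing the data. A count of 3 is 0.0551 to 0.0651 CPM, and reads carry no molecular identifiers. P-values rest on 3 pools. In the fits without a block they measure the spread between libraries of one group and do not use the pairing by pool. Only the fits with the replicate block use that pairing.

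Same-numbered libraries share a tissue pool, per the series' design text, and so are paired. Their deviations from group means correlated at 0.23, 0.12 and 0.08, against -0.19 to 0.08 for libraries of different numbers. For each gene the deviations within a group cancel out. The values for different numbers are therefore tied to the others and are no independent background. Genes named from a list are the up to 4 called genes with the largest log2 fold change in size and calls against the list's majority. Some genes that belong to the lists are not reported here by name. The markers and lists were chosen with earlier results of these data known. Coordinates are those of the table; 27576 of its identifiers were found in GENCODE M39, on the same chromosomes.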

Additional observations from a re-analysis of the deposited data

How the results depend on the processing

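Pdgfra, Neu4, Gpr17, Vcan, Ptprz1, Cspg4 and Bcan were lower past the threshold under each of 16 alternatives, with log2 fold changes between -3.74 (Neu4) and -1.86 (Bcan), while C1ql1 passed in 12, Tnr in 10 and Lhfpl3 in 3. The block alone changed no call of a marker other than Lhfpl3. The block with the length and GC correction, which raised the median of all genes to 0.30, turned Lhfpl3 to 0.09 and gave 8 lower markers. It also gave 1 lineage factor, 2 further precursor genes, 2 committed-stage genes, 2 ligands, 10 neuronal genes and 1 cell-cycle gene higher, and 1 ligand and 2 cell-cycle genes lower; the cause was not tested. The replicate block gave 1 matrix gene higher, 1 neuronal and 2 cell-cycle genes lower. It called 15.2% of all genes tested higher and 19.4% lower. Higher matrix genes numbered 0 with library totals alone and 1 without the low-count filter, and DESeq2 gave 1 cell-cycle gene lower. With 1 library or 1 pool left out, lower genes numbered 7 to 10 (markers), 7 to 10 (lineage factors), 4 to 12 (further precursor genes), 5 to 7 (committed), 12 (mature), 10 (astrocyte), 3 to 5 (pericyte), 0 to 3 (fibroblast), 1 to 2 (matrix), 1 to 3 (ligands), 0 to 3 (relatives), 0 to 1 (neuronal) and 0 to 1 (cell cycle). Higher genes numbered 0 to 1 (further precursor genes), 0 to 1 (matrix), 0 to 3 (relatives) and 0 to 8 (neuronal). Without 1 library, 7 further precursor genes at the fewest were lower. The difference of Neu4 from Pdgfra ran from -0.20 to 0.51 with 1 library left out, and was -0.17 without IP replicate 2. At 31 to 182 counts per IP library, depth limits the ratios of Pdgfra, Cspg4, Gpr17, Vcan and Neu4.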
